A study of Mus musculus with 20 samples.

Results

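Voltage-gated sodium and calcium channels were examined through the genes for their subunits, 38 of the 22048 genes counted in the hypothalamic arcuate nucleus (ARC). The members were chosen by symbol alone, as genes named Scn with a number and a or b, or with a name beginning Cacna, Cacnb or Cacng, with 1 symbol set aside by the rule. They comprise 13 sodium channel genes, which make 9 pore-forming alpha and 4 beta subunits, and 25 calcium channel genes, which make 10 pore-forming alpha subunits, 4 alpha2delta subunits, 4 beta subunits and 7 gamma subunits. The sodium channel gene listed as Scn2a1 does not match the pattern and is not among them.

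RNA was sequenced from the whole ARC of male C57BL6/J mice, taken by laser capture microdissection, after corticosterone (Cort, 75 µg/ml) or vehicle was given in drinking water to mice that were 10 weeks old at the start. All mice, vehicle included, received 1% ethanol. Treatment lasted 2 days in one dataset and 4 weeks in the other, each with 5 vehicle and 5 Cort samples, and the 4 week mice were in addition fasted for 16 h and refed for 24 h before collection. The study left out 2 vehicle samples and 1 Cort sample per dataset as outliers, so that comparisons here used 3 vehicle and 4 Cort samples, and all 10 samples as an alternative. The datasets also differed in section thickness, slides, laser system and sequencer, and the effect of time and that of these differences cannot be told apart. Nothing ties a column of counts to a numbered mouse in the labels, and P values measure the spread between these samples.

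Sodium channels open briefly on depolarisation and carry the upstroke of the action potential, and their beta subunits tune gating and anchor the channel at the membrane. Calcium channels turn depolarisation into calcium entry. The Cav2 family drives transmitter and peptide release at terminals, the Cav1 family carries long-lasting currents in somata and dendrites, and the Cav3 family opens near rest and favours burst firing, as in many hypothalamic neurons.

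The samples held 2487063 to 5748223 counts at 2 days and 1065776 to 5196364 at 4 weeks, of which the channel genes took 0.180% to 0.271% and 0.260% to 0.353%. In the shallowest sample, 3 counts corresponded to 1.19 CPM (counts scaled to library size) at 2 days and 2.75 CPM at 4 weeks. This floor reflects counting error alone, since the RNA was amplified. Agrp, Npy and Pomc, which mark arcuate neurons, were at 122 CPM or more in every sample at 2 days. At 4 weeks the lowest sample had 18.0 CPM of Agrp, 48.6 CPM of Npy and 20.2 CPM of Pomc. The arcuate neuron gene Kiss1 reached only 1.64 CPM at 2 days and had at most 3 counts in every 4 week sample. In tissue of many cell types, fewer cells of a type and less RNA per cell cannot be told apart.

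The stretches of DNA that precede the starts of 3 members are shown because these are the genes, among members tested in both datasets and present in the promoter table (RefSeq, GRCm38.p6), whose Cort effect differed between the datasets with an unadjusted P below 0.05. The 250 bases before each start are written 5′ to 3′ on the gene's strand, and capitals mark the motifs found. The windows lie at chr2:66440838-66441087 on the minus strand for Scn1a, chr9:45117626-45117875 on the plus strand for Scn2b and chr5:15934441-15934690 on the plus strand for Cacna2d1. These starts are those of RefSeq. In the annotation used for exon lengths, Scn2b begins at 45117782, so that the later part of its window lies inside the gene. Scn1a begins there at 66440840, at the end of its window, and Cacna2d1 at 15934691, just after its window.
Scn1a: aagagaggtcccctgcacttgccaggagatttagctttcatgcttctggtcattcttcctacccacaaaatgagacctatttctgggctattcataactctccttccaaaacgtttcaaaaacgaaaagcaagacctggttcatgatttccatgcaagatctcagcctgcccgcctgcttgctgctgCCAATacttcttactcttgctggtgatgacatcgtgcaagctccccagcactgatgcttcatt
Scn2b: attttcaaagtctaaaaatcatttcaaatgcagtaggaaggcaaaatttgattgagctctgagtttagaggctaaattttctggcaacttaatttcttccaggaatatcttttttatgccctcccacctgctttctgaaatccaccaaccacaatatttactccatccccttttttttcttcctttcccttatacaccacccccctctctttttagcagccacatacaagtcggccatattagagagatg
Cacna2d1: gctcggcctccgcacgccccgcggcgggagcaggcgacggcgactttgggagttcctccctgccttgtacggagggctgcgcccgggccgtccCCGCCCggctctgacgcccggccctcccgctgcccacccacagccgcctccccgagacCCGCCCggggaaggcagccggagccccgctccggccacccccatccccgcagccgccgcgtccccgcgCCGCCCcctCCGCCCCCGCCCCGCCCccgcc

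In Scn1a the capitals mark the CCAAT box, CCAAT, at 63 to 59 bases before the start. In Cacna2d1 they mark 6 copies of the GC box, GGGCGG, all on the opposite strand, of which the last 2 share a base. None of the motifs searched was found in the window of Scn2b. The window of Scn2b was 38.4% G and C, the lowest among the members, against 46.8% for Scn1a and 82.4% for Cacna2d1. Windows were matched by symbol for 28 of the 38 members, which had 38 windows, and the members' median of 57.4% compares with 52.4% over 32851 windows. Both strands were searched in every window. CCAAT was in 10 of the members' windows and 33.8% of all windows, and GGGCGG was in 15 and 32.7%. The TATA box, TATAAA, was found before Cacna1d alone among the members and in 12.4% of all windows. The inner bases of the glucocorticoid response element, ACANNNTGT, were found in 1 window among the members, before Cacna1c, and in 5.84% of all windows. The cAMP response element, TGACGTCA, and the RE1 element were in none of the members' windows and in 1.55% and 0.0213% of all windows.

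Several members lie near each other on the genome (GRCm38). Scn3a, Scn1a, Scn9a and Scn7a form a cluster on chromosome 2, and so do Scn10a and Scn11a on chromosome 9, Scn2b and Scn4b elsewhere on chromosome 9, Cacng1, Cacng4 and Cacng5 on chromosome 11, and Cacng7 and Cacng6 on chromosome 7. Scn1a spans positions 66270778 to 66440840 of chromosome 2 and Cacna1a spans 84388440 to 84640246 of chromosome 8. Their transcripts are long. The 29 members tested at 2 days had a median of 8963 exon bases, against 4730 over the genes tested that had a length.

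Of the 38 members, 29 passed the filter on low counts in each dataset, the same genes in both. The other 9 are Scn4a, Scn10a, Scn11a, Scn4b, Cacna1f, Cacna1s, Cacna2d4, Cacng1 and Cacng6. Scn4a and Cacna1s serve skeletal muscle, Scn10a and Scn11a serve sensory neurons, Cacna1f and Cacna2d4 serve the retina, Cacng1 and Cacng6 are muscle subunits, and Scn4b makes a beta subunit. Of these, 5 were at 0 in every sample at 4 weeks, and Cacng6 was at 0 in every sample of both datasets. Single samples stood out in this group. Scn11a reached 25.4 CPM in 4 week vehicle sample C02, was at 0 in the other vehicle samples and at 0 or 0.615 CPM in the Cort samples. Cacna2d4 reached 22.6 CPM in the left-out vehicle sample C05 at 4 weeks.

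Levels of the members were compared per kilobase of exon, as the mean over the 7 samples kept. At 2 days Scn2b, whose product is the covalently bound beta2 subunit, was highest with 32.7 ± 3.48 CPM per kilobase (SD, n = 7). Cacna2d2, an alpha2delta subunit that brings channels to the membrane, followed with 30.0 ± 6.17 CPM per kilobase. Cacng4, one of the gamma subunits that also accompany AMPA receptors, had 29.9 ± 6.41 CPM per kilobase. These neighbours did not differ beyond their spread. Of the 37 steps between neighbours in the order, 3 were larger than the larger SD of the pair at 2 days and 1 at 4 weeks.

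The highest members of the other classes at 2 days were Cacna1b, the N-type channel of nerve terminals, at 18.7 ± 2.37 CPM per kilobase, and Scn9a, the alpha subunit known from nociceptors and hypothalamic neurons, at 17.2 ± 2.45. Cacnb3 led the beta subunits at 14.9 ± 4.16 CPM per kilobase. The T-type Cacna1h and the L-type Cacna1c led theirs at 3.30 ± 1.14 and 3.004 ± 0.922. The pore genes of the Cav1 and Cav3 families all lay below 4.10 CPM per kilobase, the level of the lowest Cav2 gene, Cacna1a. Among the alpha subunits of sodium channels, Scn3a had 10.6 ± 1.44, Scn1a 5.25 ± 2.28 and Scn8a 2.40 ± 0.888 CPM per kilobase. Levels at 2 days and 4 weeks had a Spearman correlation of 0.933 across the 38 members, given as a description, since the genes of a dataset share their samples and their lengths. With the longest transcript as the length, Cacna2d2 was first at 2 days and Scn2b second.

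**Figure D1:**
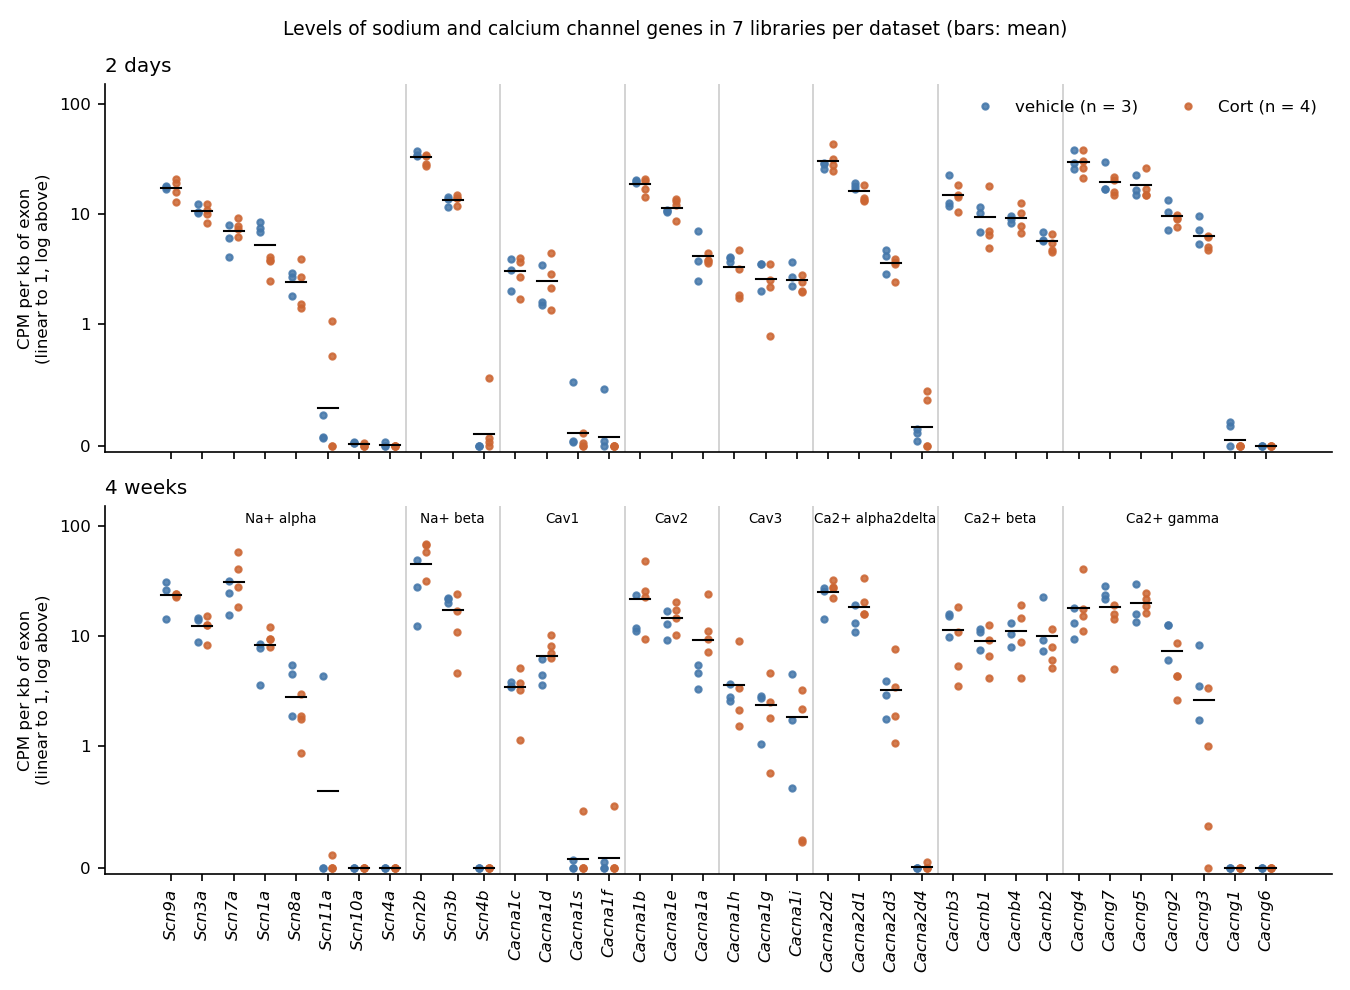
CPM per kilobase of exon (linear up to 1, logarithmic above) of 36 members in the 7 samples kept at 2 days (top) and 4 weeks (bottom), grouped by subunit class, with points for samples and bars for means. Scn2b, Cacna2d2 and Cacng4 are highest at 2 days, and 9 members lie at or near 0.

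Scn7a differed in range between the datasets. It makes the sodium sensor of glia and does not open by voltage. Its level was 29.6 to 67.6 CPM in the samples kept at 2 days and 113 to 423 CPM in those kept at 4 weeks. It was 1 of 29 members tested whose ranges did not overlap between the datasets, close to the 3.8% of all genes tested in both. With all 10 samples no member was in this class, against 1.71% of all genes, and the 3 samples left out at 2 days had 76.5 to 124 CPM of Scn7a. The summed level of 6 tanycyte markers was 85.2 to 184 CPM in the samples kept at 2 days, 231 to 236 CPM in the 3 left out and 146 to 525 CPM in those kept at 4 weeks. Among them Rax, a defining gene of these glia-like cells, was at most 1.82 CPM at 2 days. At 4 weeks Rax reached 18.5 CPM in 1 sample, and its mean was 9.69 CPM with vehicle and 0.421 CPM with Cort in the samples kept. Of the 5 tanycyte markers tested at 4 weeks, 1 was higher with Cort. Mean Scn7a in the same samples was 174 CPM with vehicle and 265 CPM with Cort. The part of these cells in the level of Scn7a was not tested. No test of the datasets against each other was made, since they differ in more than time.

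The first comparison asked which channel genes differed between Cort and vehicle after 2 days. Scn1a, the alpha subunit known for the firing of fast-spiking inhibitory neurons, was the member with an unadjusted P below 0.05 by edgeR's quasi-likelihood test, where 5.97% of 12309 genes had one. Its level was 83.6, 93.6 and 76.5 CPM in the vehicle samples and 44.9, 42.4, 41.4 and 27.4 CPM in the Cort samples. The groups did not overlap, and all Cort values were the lower ones. The mean was 84.5 ± 8.59 CPM with vehicle (SD, n = 3) and 39.0 ± 7.87 CPM with Cort (SD, n = 4). The log2 fold change was -1.10 with a standard error of 0.26, a 2.14-fold lower level with Cort, with an unadjusted P of 0.000399 and an adjusted P (Padj) of 0.351 over all genes by edgeR. DESeq2 gave a Padj of 0.0158. An exact permutation test of the log2 CPM gave P = 0.0571, the smallest that 3 against 4 samples allow.

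The samples left out by the study went the other way for Scn1a. The left-out vehicle samples C07 and C09 had 35.8 and 30.8 CPM, and the left-out Cort sample C08 had 68.8 CPM. Over all 10 samples the groups overlapped and the log2 fold change was -0.50, with an unadjusted P of 0.137 by edgeR and P = 0.325 by the exact permutation test. In the fits that left out 1 of the 7 samples, the log2 fold change of Scn1a lay between -1.17 and -0.97.

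Sums of oligodendrocyte and arcuate neuron markers also separated the groups kept at 2 days, and the pan-neuronal sum did not. The summed level of 7 oligodendrocyte markers was 688 to 765 CPM in the vehicle samples kept and 784 to 1269 CPM in the Cort samples kept. In the 3 left out it was 1236 to 1826 CPM with vehicle and 1821 CPM with Cort. Their Scn1a levels were 30.8 to 35.8 CPM and 68.8 CPM. Of these markers, 6 of 7 were higher with Cort, 2 with an unadjusted P below 0.05. The summed level of 8 arcuate neuron markers was 1286 to 1724 CPM with vehicle and 1834 to 2443 CPM with Cort in the samples kept. In the samples left out it was 2240 to 2493 CPM with vehicle and 3203 CPM with Cort, so that the groups overlapped over all 10 samples. In the samples kept, all 7 of the markers tested were higher with Cort, 3 with an unadjusted P below 0.05 by edgeR. These were Agrp, Npy and Pomc. Mean Agrp was 170 CPM with vehicle and 423 CPM with Cort, with a Padj of 0.0103 by edgeR. Npy had 379.5 and 530 CPM, and Pomc 306 and 449 CPM. The others differed by less in CPM, with Cartpt at 366 and 392 CPM, Ghrh at 128 and 131 CPM, Tac2 at 134 and 143 CPM, and Th at 50.8 and 65.4 CPM. The sum of 9 pan-neuronal markers was 6298 to 6604 CPM with vehicle and 5873 to 6823 CPM with Cort. The part of these in the Scn1a difference was not tested.

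No member had a Padj below 0.1 at 2 days by edgeR, where 0.065% of all genes did, whereas DESeq2 placed Scn1a alone below that threshold, with 0.439% of all genes, and voom over 10 samples placed none. Scn1a was also the single member of 29 whose 7 samples did not overlap between groups, against 6.63% of all genes. Over 10 samples no member had an unadjusted P below 0.05 and none had groups that did not overlap, where 5.28% and 0.801% of all genes did. Apart from the DESeq2 call, the members' shares were no larger than the background. The members' median log2 fold change was -0.09, with 10 positive and 19 negative, against 0.02 over all genes. Over 10 samples the median was 0.02 with 16 positive, and without vehicle sample C05 it was 0.10.

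Most members were measured closely enough at 2 days to bound their differences among the 7 samples kept. In 21 of the 29 members the 95% interval of the fold change lay within 2-fold either way, against 44.7% of all genes. Among them were Scn9a at 223 ± 8.54 CPM with vehicle and 218 ± 43.5 CPM with Cort, Cacna1b at 196 ± 6.17 and 178 ± 29.9 CPM, and Cacna2d2 at 221 ± 15.8 and 251 ± 64.0 CPM. Scn2b lay between 156 and 175 CPM with vehicle and between 128 and 158 CPM with Cort. By class, the Cav1 genes had 2 positive fold changes of 2, the Cav3 genes 0 of 3 and the gamma subunits 1 of 5, none of them with an unadjusted P below 0.05. The standard deviation of log2 CPM within groups had a median of 0.31 over the members and 0.45 over all genes.

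**Figure D2:**
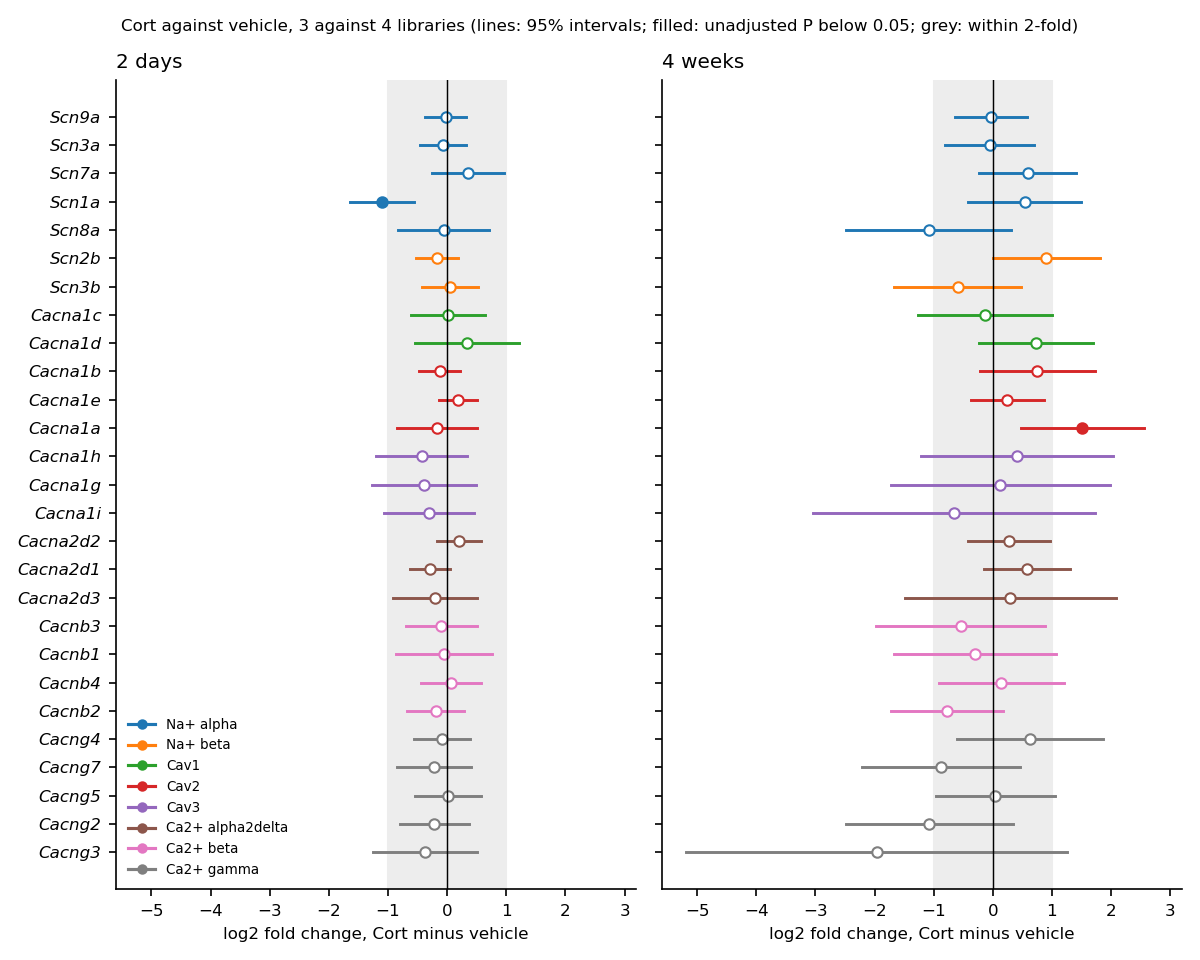
Log2 fold change, Cort minus vehicle, of 27 members tested at 2 days (left) and 4 weeks (right), with 95% intervals from edgeR, filled where the unadjusted P is below 0.05 and with differences up to 2-fold shaded. Scn1a at 2 days and Cacna1a at 4 weeks are the filled points, and intervals are wider at 4 weeks.

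The second comparison asked the same after 4 weeks. Cacna1a, the pore of the P/Q-type channel that triggers fast transmitter release, was the member with an unadjusted P below 0.05, where 4.91% of 11211 genes had one. Its level was 37.5, 61.9 and 52.4 CPM in the vehicle samples and 272, 126, 106 and 80.8 CPM in the Cort samples. The groups did not overlap, all Cort values being the higher ones, and Cort sample C07 was the highest. The mean was 50.6 ± 12.3 CPM with vehicle (SD, n = 3) and 146 ± 86.0 CPM with Cort (SD, n = 4). The log2 fold change was 1.52 with a standard error of 0.49, a 2.86-fold higher level with Cort, with an unadjusted P of 0.00687 and a Padj of 0.918 by edgeR, and Padj was 0.193 by DESeq2. Without Cort sample C07 the log2 fold change was 1.03. Exons of Cacna1a share 3.8% of their bases with another annotated gene.

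The left-out samples again differed. The left-out vehicle samples C01 and C05 had 44.1 and 122 CPM of Cacna1a, and the left-out Cort sample C06 had 38.1 CPM. Over 10 samples the log2 fold change was 0.94, with an unadjusted P of 0.0845 by edgeR and P = 0.175 by an exact permutation test. At 2 days Cacna1a was 42.5, 28.0 and 79.9 CPM with vehicle and 40.8 to 50.7 CPM with Cort, with overlapping groups.

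At 4 weeks the pan-neuronal and astrocyte marker sums separated the groups kept, and the oligodendrocyte and arcuate neuron sums overlapped. The pan-neuronal sum was 4333 to 4931 CPM in the vehicle samples kept and 5093 to 5685 CPM in the Cort samples kept, and the sum of 6 astrocyte markers was 2755 to 2787 CPM against 3045 to 4132 CPM. In the samples left out, the pan-neuronal sum was 4069 to 5480 CPM with vehicle and 5899 CPM with Cort. The astrocyte sum was 1864 to 3972 CPM and 4277 CPM there, so that both sums overlapped between groups over all 10 samples. Of the 9 pan-neuronal markers 5 were higher with Cort, and of the 6 astrocyte markers 4 were. Mean Slc1a2, the most abundant astrocyte marker, was 2025 CPM with vehicle and 2807 CPM with Cort. Slc1a3 had 363 and 443 CPM, Aqp4 172 and 167 CPM, and Gja1 114 and 115 CPM. The oligodendrocyte sum was 1164 to 1333 CPM with vehicle and 512 to 1242 CPM with Cort, with 1 of 7 markers higher. The arcuate neuron sum was 967 to 1410 CPM with vehicle and 484 to 977 CPM with Cort, with 2 of 7 higher. Mean Npy was 444.5 CPM with vehicle and 89.8 CPM with Cort, and Agrp 214 and 149 CPM. Pomc had 190 and 188.5 CPM, and the 2 higher markers were Cartpt at 143 and 163 CPM and Tac2 at 27.8 and 110.5 CPM. The part of these in the Cacna1a difference was not tested.

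Cacna1d and Cacng7 also had groups that did not overlap in the 7 samples at 4 weeks. Cacna1d, an L-type pore that opens at low voltages and paces firing, was 44.6, 76.8 and 56.0 CPM with vehicle and 128, 101, 87.6 and 79.6 CPM with Cort. The log2 fold change was 0.73 (SE 0.45) and Padj was 0.99 by edgeR. The groups were also separate over all 10 samples, where the left-out vehicle samples had 74.4 and 20.1 CPM and the left-out Cort sample had 128 CPM. The exact permutation test over 10 samples gave P = 0.00794, the smallest possible for 5 against 5, a test made for 38 members per dataset, and edgeR gave 0.93 for the log2 fold change with a Padj of 0.991. Exons of Cacna1d share 4.7% of their bases with Chdh.

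Cacng7, a gamma subunit that accompanies AMPA receptors, was 69.7, 56.7 and 52.8 CPM with vehicle and 12.2, 34.3, 46.9 and 38.1 CPM with Cort. The log2 fold change was -0.87 (SE 0.63) and Padj was 0.99 by edgeR. The left-out vehicle samples had 49.6 and 18.9 CPM, so that the groups overlapped over 10 samples. These 2 genes and Cacna1a made 3 of 29 members, against 6.53% of all genes. Over 10 samples Cacna1d was the single member, against 0.942% of all genes.

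Scn2b was near the threshold at 4 weeks. It was 129, 227 and 57.3 CPM with vehicle and 145, 315, 309 and 271 CPM with Cort, and the groups overlapped. The log2 fold change was 0.90 (SE 0.43), with an unadjusted P of 0.0506 and a Padj of 0.99 by edgeR. Over all 10 samples Scn2b and Cacng3 had an unadjusted P below 0.05, where 4.9% of all genes had one. The value for Scn2b was then 1.04 on the log2 scale with an unadjusted P of 0.0176 and a Padj of 0.991. Cacng3 had 0 to 22.8 CPM in the samples kept and 103 CPM in left-out vehicle sample C05.

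**Figure D3:**
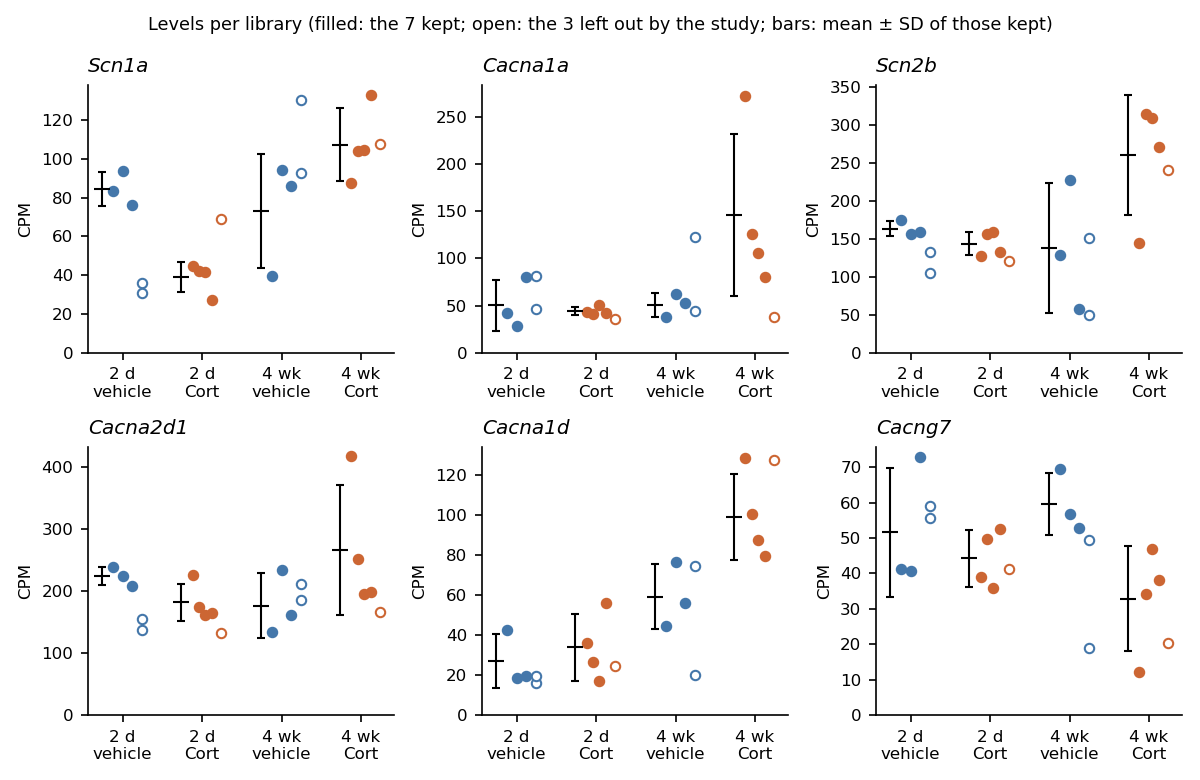
CPM of 6 members in each sample, by dataset and treatment, with filled points for samples kept, open points for samples the study left out, and bars for the mean ± SD of those kept. Scn1a separates the groups at 2 days and Cacna1a, Cacna1d and Cacng7 do so at 4 weeks among filled points, and open points overlap the other group for all but Cacna1d.

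No member had a Padj below 0.1 at 4 weeks by edgeR, DESeq2 or voom, where 0.0446% of all genes did by edgeR and 0.384% by DESeq2. The members' median log2 fold change was 0.08, with 16 positive and 13 negative, against 0.04 over all genes. The 3 Cav2 genes and the 3 alpha2delta genes tested were all above 0, from 0.25 to 1.52 and from 0.27 to 0.58, and apart from Cacna1a none had an unadjusted P below 0.05. Over 10 samples 1 of the alpha2delta genes was below 0. The members' median was -0.10 without vehicle sample C02 and -0.07 without Cort sample C08. Precision was lower than at 2 days. The interval lay within 2-fold in 4 of 29 members, Cacna1e, Cacna2d2, Scn3a and Scn9a, and in 9.73% of all genes. The median half-width of the members' intervals was 1.08 on the log2 scale, against 0.60 at 2 days.

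The third comparison asked whether the Cort effect differed between 4 weeks and 2 days, as an interaction over the 14 samples kept. Of 30 members tested, 5 had an unadjusted P below 0.05, where 6.49% of 12777 genes had one, and none had a Padj below 0.1 by edgeR or DESeq2, where 0.0157% of all genes did by edgeR and 0.305% by DESeq2. For Scn1a the log2 fold change was -1.10 at 2 days and 0.54 at 4 weeks, where its samples had 39.6, 94.1 and 86.0 CPM with vehicle and 87.5 to 133 CPM with Cort. The difference was 1.65 (SE 0.50), with an unadjusted P of 0.00334 and a Padj of 0.714 by edgeR. For Cacna1a the log2 fold change was -0.17 at 2 days and 1.52 at 4 weeks, and the difference was 1.69 (SE 0.60), with a Padj of 0.714 by edgeR.

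Cacna2d1, the alpha2delta subunit to which gabapentin binds, and Scn2b differed by less. Cacna2d1 was 238, 224 and 209 CPM with vehicle and 161 to 226 CPM with Cort at 2 days, and 133, 234 and 162 CPM with vehicle and 195 to 418 CPM with Cort at 4 weeks. The groups overlapped at both times. The difference of the log2 fold changes was 0.88 (SE 0.38) for Cacna2d1 and 1.08 (SE 0.48) for Scn2b, each with a Padj of 0.746 by edgeR. The fifth member, Scn11a, rested on the single vehicle sample C02 at 4 weeks, without which its difference was 0.80. In fits with 1 sample fewer, the unadjusted P of Scn1a was below 0.05 in 14 of 14. That of Cacna1a did so in 13 and not without vehicle sample C05 of 2 days. Scn2b lost it without samples C01, C02 or C10 of 2 days and without C02, C04, C08 or C09 of 4 weeks. Cacna2d1 lost it without samples C02, C04, C06 or C10 of 2 days and without C02, C04 or C07 of 4 weeks. Over all 20 samples the members with an unadjusted P below 0.05 were Cacna1a, Cacna1b, Cacng3 and Scn2b, 4 of 29, where 6.23% of all genes had one. The difference for Scn1a was then 0.77, with an unadjusted P of 0.151 by edgeR. Of the 29 members tested in both datasets, 17 had log2 fold changes of the same sign.

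**Figure D4:**
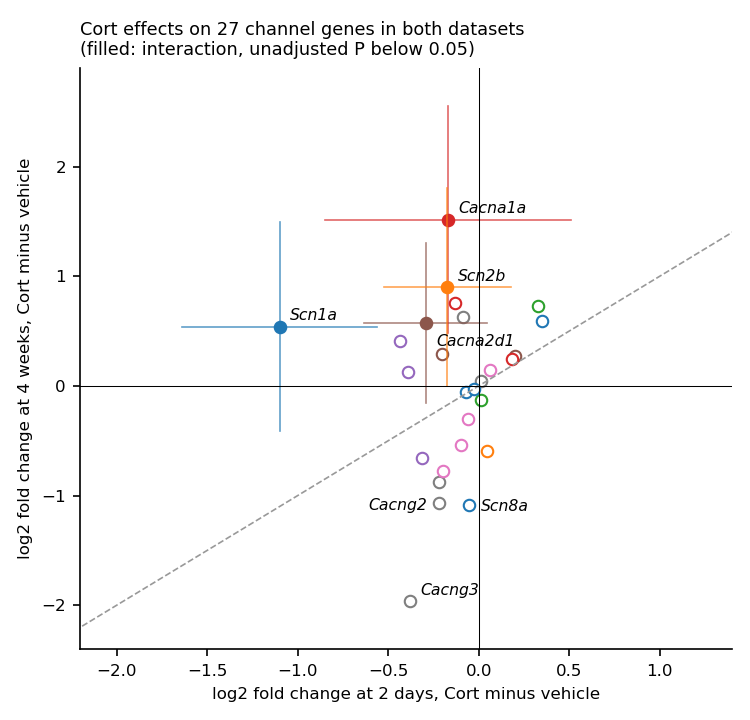
Log2 fold change, Cort minus vehicle, at 2 days (horizontal) and 4 weeks (vertical) for 27 members tested in both datasets, filled with 95% intervals where the interaction had an unadjusted P below 0.05, and a dashed line of equal effects. Scn1a, Cacna1a, Scn2b and Cacna2d1 lie above the line, with negative values at 2 days and positive ones at 4 weeks.

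Of 52 partner genes listed, 51 were in the tables. They cover fibroblast growth factor homologues and ankyrin partners of sodium channels, the NALCN sodium leak channel, small GTPases that restrain calcium channels, calmodulins and calcium-dependent kinases, HCN channels, release channels, and calcium pumps, exchangers and buffers. None had a Padj below 0.1 in either dataset by edgeR. At 2 days 46 were tested, of which 1 was higher and 1 lower with an unadjusted P below 0.05, and their median log2 fold change was 0.01. Atp2b4, a plasma membrane calcium pump, was the lower of these at 155 ± 29.3 CPM with vehicle and 101 ± 14.9 CPM with Cort, with a log2 fold change of -0.61 (SE 0.19), an unadjusted P of 0.00549 and a Padj of 0.546 by edgeR. At 4 weeks 42 were tested, of which 1 was lower with an unadjusted P below 0.05, and their median was 0.06.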

How the data were processed

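Per the authors' methods and the labels, RNA was amplified, sequenced and mapped to GRCm38, and reads were counted per gene with featureCounts. The annotation release and strand settings are not given in the sources used here. The authors deposited raw counts for 22048 genes in 10 samples per dataset. Their normalised tables, with fold changes and p-values of their own that were not used, served only to pair gene identifiers with symbols. The members, lists, tests and alternatives were chosen with earlier results of these data known.

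Columns were placed in groups by the table of the study that pairs them with treatments. Counts were fitted with edgeR 4.0.16 (TMM scaling, filterByExpr, quasi-likelihood test, Benjamini-Hochberg adjustment over all genes tested), with DESeq2 1.42.0 and limma 3.58.1 as alternatives in R 4.3.3, and thresholds of 0.05 for unadjusted P and 0.1 for Padj. CPM was computed from the counts with TMM scaling over the 10 samples of a dataset. Permutation tests were two-sided on log2(CPM + 1). Lengths came from GENCODE for GRCm38. The fits were also run on counts simulated from the means and dispersions of the samples kept, which cannot show how they handle outlier samples. Genes were named where the unadjusted P was below 0.05, where groups did not overlap, or where a member was the highest of its class, partner genes where the unadjusted P was below 0.01, and others were chosen after their values were seen. Upper quartile and relative log expression scaling, other filters and each sample left out were also tried. Of the members, 2 enter the counts and medians and are not reported singly here.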

Additional observations from a re-analysis of the deposited data

Results flagged for a closer look

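The Cort effects at 4 weeks and 2 days differed by an unadjusted P below 0.05 of the interaction in 5 members, by 1.65 for Scn1a, 1.69 for Cacna1a, 1.08 for Scn2b, 0.88 for Cacna2d1 and -7.32 for Scn11a on the log2 scale. Their Padj was 0.714 to 0.746 by edgeR, so none passed the correction.

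Single samples stood far from the rest of their group in 9 of 82 groups of 4 or 5 samples examined for the genes named. The rule flags about 1 in 20 groups of normal values, which CPM need not be. All 9 were groups of 5, which hold samples the study left out as outliers, and groups of 4 are parts of groups of 5. The count is therefore no measure of an excess. At 2 days, in the 5 vehicle samples, C07 was lowest for Cacna1b at 133 CPM and highest for Scn11a at 11.5 CPM, and C02 was highest for Cacna1d at 42.8 CPM. In the 5 vehicle samples at 4 weeks, C05 was highest for Cacna1a at 122 CPM, C03 for Cacna1b at 235 CPM and C02 for Scn11a at 25.4 CPM. In the 5 Cort samples at 4 weeks, C07 was highest for Cacna1h at 87.9 CPM, and C06 was highest for Cacnb3 at 289 CPM and for Scn9a at 472 CPM.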

How the results depend on the processing

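No paired analysis was possible because the columns of counts carry no replicate number of the labels. Scn1a at 2 days had an unadjusted P below 0.05 in 13 of 14 alternatives and lost it over all 10 samples, with Padj from 0.0158 to 0.957. Cacna1a at 4 weeks also had one in 13 of 14 and also lost it over all 10 samples, with Padj from 0.193 to 1. Most of these alternatives used the same 7 samples kept, or all but 1 of them. The 2 tallies are therefore no independent check of genes named for their P in those samples. Counts of members with an unadjusted P below 0.05 moved at 2 days to 3 of 37 with no filter, where 7.06% of all genes had one. They moved to 0 of 29 over all 10 samples, where 5.28% of all genes had one. With 1 sample left out they lay between 1 and 2 of 29 to 31, where 4.37% to 6.57% of all genes had one (2 without C01 or C03, with Cacna2d1 or Cacna1e added). At 4 weeks they moved to 3 of 33 with no filter (6.94% of all genes) and to 2 of 27 with at least 10 counts in every sample (5.97%). They moved to 2 of 29 with DESeq2 (7.01%), over all 10 samples (4.9%) and with voom (5.36%), Scn2b being among the calls each time. With 1 sample left out they lay between 1 and 4 of 29, where 4.03% to 5.12% of all genes had one (4 without C03 or C09, 2 without C07). For the interaction they moved to 2 of 29 with voom (5.06% of all genes). With 1 sample left out they lay between 2 and 7 of 29 to 33, where 4.51% to 8.47% of all genes had one. There were 2 without C10 and 3 without C01 or C02 of the 2 day samples, and 3 without C02 of the 4 week samples. Members with a Padj below 0.1 at 2 days moved to 1 of 29 with DESeq2, where 0.439% of all genes had one. Members whose groups did not overlap moved at 2 days to 2 with upper quartile scaling, Scn2b being the addition, and to 0 over all 10 samples, and at 4 weeks to 1 over all 10 samples. The median log2 fold change of the members at 4 weeks lay between -0.10 and 0.30 with 1 sample left out, the largest values without C04 (0.30) and C03 (0.27). Reversals on the log2 scale came from leaving out single samples, for Cacna1a at 2 days (-0.46 to 0.35, the latter without C05), Cacna1d at 2 days (-0.019 without C10 to 0.82), Cacng7 at 2 days (-0.36 to 0.12, the latter without C05) and the interaction of Scn11a (-9.88 to 0.80, the latter without C02 of 4 weeks). The cause of these moves was not tested. At 4 weeks the spread limits what could be seen, since all but 4 of the intervals of the 29 members reached beyond 2-fold.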

Other observations

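The 3 samples left out by the study at 2 days differed from the 7 kept in 4 of 29 members whose ranges did not meet. Scn7a was higher in those left out, at 76.5 to 124 CPM against 29.6 to 67.6 CPM. Scn3a, the alpha subunit best known from the developing brain, was lower at 56.8 to 93.2 CPM against 103 to 155 CPM, as were Cacna2d1 at 132 to 155 against 161 to 238 CPM and Cacna2d2 at 155 to 181 against 194 to 341 CPM. Of all genes, 4.26% were higher and 3.36% lower in this sense. At 4 weeks Cacng5 alone was lower, at 21.0 to 49.6 CPM against 51.5 to 113 CPM, where 1.07% of all genes were higher and 2.69% lower.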
